A study of Mus musculus with 12 samples.

Results

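The 9 genes described here are the globin genes Hba-x, Hba-a1, Hba-a2, Hbb-y, Hbb-bh1, Hbb-bs and Hbb-bt and the red cell genes Alas2 and Slc4a1, 9 of the 45777 gene identifiers in the tables. They were chosen by name as the embryonic and definitive erythroid genes, and their levels were read across brachial and lumbar spinal cord and both Isl2 genotypes. The study asked how the transcription factor Isl2 acts in spinal motor neurons (MNs), and compared Isl2 KO with Isl2 +/- (Het) mouse embryos at E12.5. Total RNA came from the ventral part of the cord, cut out with the help of Hb9::GFP, a reporter of MNs, in 12 libraries, 3 for each genotype at the brachial level and 3 for each at the lumbar level. All embryos carried at least 1 null Isl2 allele, in which exons are replaced by a neomycin cassette, and no wild-type library was analysed here. The tissue was not sorted, so each library can hold blood, vessel and immune cells beside neurons. The study's methods name 3 Het and 3 homozygous animals for these cords, so the 12 libraries may stand for 6 embryos, and the labels do not tie a brachial library to a lumbar one. The comparison between levels, the interaction and each SD over 12 libraries treat the libraries as separate samples, so their p-values and errors measure only the spread between libraries.

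In the mouse embryo the first red cells are made in the yolk sac and circulate with embryonic globins, and later red cells from the fetal liver carry adult globins. Hba-x encodes the embryonic alpha-like (zeta) chain, and Hbb-y and Hbb-bh1 encode embryonic beta-like chains. Hba-a1 and Hba-a2 encode the alpha chain of adult hemoglobin, which primitive red cells also make, and Hbb-bs and Hbb-bt encode the adult beta chains. Alas2 is the erythroid enzyme of the first step of heme synthesis, and Slc4a1 (band 3) is the anion exchanger of the red cell membrane.

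The genes lie on 3 chromosomes (mm10). Hba-x, at chr11:32276600-32278116, Hba-a1, at chr11:32283672-32284486, and Hba-a2, at chr11:32296492-32297310, follow one another on the plus strand. Hbb-y, at chr7:103851754-103853207, Hbb-bh1, at chr7:103841638-103843162, Hbb-bs, at chr7:103826523-103827928, and Hbb-bt, at chr7:103812524-103813923, follow one another on the minus strand, embryonic genes first in the direction of transcription. Slc4a1 lies apart on chromosome 11, at chr11:102348820-102365281, and Alas2 on the X chromosome, at chrX:150547417-150570622.

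RefSeq promoters (GRCm38.p6, 300 bases around the annotated start) were at hand for 7 of the 9 genes, not for Hbb-bh1 and Slc4a1. An embryonic and an adult promoter of each cluster are shown because their genes form the embryonic to adult ratios. Capitals mark the letters CACCC (of the box named after them), the letters GATAA (of a core that erythroid factors can bind), the letters CCAAT (of a general promoter box) and the letters TATAA (of the core promoter), on either strand, and neighbouring matches can overlap. In order, the regions are chr11:32276350-32276649 (plus strand), chr11:32283422-32283721 (plus), chr7:103853158-103853457 (minus) and chr7:103827879-103828178 (minus).
Hba-x: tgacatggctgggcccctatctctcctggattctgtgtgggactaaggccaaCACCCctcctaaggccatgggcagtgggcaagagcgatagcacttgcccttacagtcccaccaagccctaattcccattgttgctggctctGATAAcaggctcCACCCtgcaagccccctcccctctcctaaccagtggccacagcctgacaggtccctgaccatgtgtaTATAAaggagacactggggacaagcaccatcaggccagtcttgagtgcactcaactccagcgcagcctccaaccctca
Hba-a1: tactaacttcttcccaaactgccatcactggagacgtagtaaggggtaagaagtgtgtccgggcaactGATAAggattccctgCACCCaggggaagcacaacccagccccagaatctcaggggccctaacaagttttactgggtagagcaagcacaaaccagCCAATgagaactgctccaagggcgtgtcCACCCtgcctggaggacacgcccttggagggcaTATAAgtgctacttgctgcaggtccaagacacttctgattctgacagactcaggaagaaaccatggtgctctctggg
Hbb-y: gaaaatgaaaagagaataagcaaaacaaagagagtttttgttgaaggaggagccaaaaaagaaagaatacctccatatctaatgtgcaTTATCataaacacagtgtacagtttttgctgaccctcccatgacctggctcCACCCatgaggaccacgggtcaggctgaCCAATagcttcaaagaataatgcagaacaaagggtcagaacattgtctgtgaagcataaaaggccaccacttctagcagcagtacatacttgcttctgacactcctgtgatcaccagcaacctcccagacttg
Hbb-bs: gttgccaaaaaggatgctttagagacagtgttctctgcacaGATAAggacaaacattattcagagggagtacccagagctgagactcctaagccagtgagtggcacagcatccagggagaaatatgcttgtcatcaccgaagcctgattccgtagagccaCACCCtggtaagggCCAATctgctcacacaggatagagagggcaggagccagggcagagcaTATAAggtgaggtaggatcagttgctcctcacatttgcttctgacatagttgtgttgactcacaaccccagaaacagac

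CACCC, the core of a box that KLF-type factors can bind, was found in 7 of the 7 promoters and in 57.5% of the 32851 promoters of this length. GATAA, the core that GATA factors can bind, was also in 7 of the 7, against 25.4% of all promoters. CCAAT was in 5 of the 7, against 37.4%, and was not in the Hba-x and Alas2 windows. TATAA was in 6 of the 7, against 24.9%, and was not in that of Hbb-y. In Alas2 the nearest match lay 207 bases before the annotated start. In the other genes with a match the nearest lay 27 to 30 bases before it. All 4 letter strings were together in 4 of the 7 promoters and in 1.5% of all promoters. These are matches of letters and not measured binding. The Hba-a1 and Hba-a2 promoters matched at 297 of 297 aligned bases, with an offset of 3 bases between the annotated starts. Their matches in these counts are therefore not separate observations.

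Near-identical copies limit what can be said of single adult globins. Of the 100-base stretches of the Hba-a1 transcript 56.5% also occurred in Hba-a2, and 74.5% of those of Hba-a2 occurred in Hba-a1. Hbb-bs shared 62.6% of its stretches with Hbb-bt, which shared 54.8% with Hbb-bs. No other pair of the 7 globin genes shared one. How the authors' quantification split reads between the copies therefore matters for each single copy, and the sums of the pairs are the firmer values.

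Levels are given as TPM, a transcript abundance that accounts for gene length, rescaled to a common library size. Aligned bases ranged from 4.485 Gb in brachial KO 3, the least, to 6.638 Gb, and 22983 to 24191 genes were above 0 in a library. Isl2, the targeted gene, was lower in each KO library than in each Het library at both levels. It was at 8.73, 8.33 and 9.72 rescaled TPM in brachial Het and 6.04, 7.28 and 4.47 in brachial KO libraries. At the lumbar level it was at 10.3, 8.43 and 9.43 in Het and 7.33, 6.53 and 8.24 in KO libraries. The Isl2 log2 fold change was −0.61 (SE 0.18, adjusted p 0.359 by limma) at the brachial and −0.35 (SE 0.13, adjusted p 0.999 by limma) at the lumbar level. The values are per gene, so which exons gave the signal in KO libraries was not tested.

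All 9 genes were detected in all 12 libraries. The 7 globin genes together took up 0.246% to 0.767% of all TPM in a library, 0.411% ± 0.14 (SD, n = 12) on average. Hbb-y was highest, at 2139.6 ± 702 rescaled TPM (SD, n = 12), followed by Hba-a1 at 817 ± 231, Hba-a2 at 339 ± 93.1, Hbb-bs at 230.3 ± 61.7, Hbb-bt at 217 ± 59.1, Hbb-bh1 at 182 ± 102 and Hba-x at 156 ± 92.6. Alas2 was at 10.8 ± 5.26 and Slc4a1 at 6.18 ± 3.99 rescaled TPM. Hbb-y exceeded Hba-a1, Hba-a1 exceeded Hba-a2 and Hba-a2 exceeded Hbb-bs in 12 of 12 libraries each. The places of single adult copies in this order depend on how reads were split between near-identical copies. The order of the 4 lower globins varied between libraries. Hbb-bs exceeded Hbb-bt in 8 of 12 libraries, Hbb-bt exceeded Hbb-bh1 in 8 and Hbb-bh1 exceeded Hba-x in 7, so these neighbours did not differ beyond their spread. Per-base read coverage was lowest for Slc4a1, at 9.64 to 38.1, and highest for Hbb-y, at 3835 to 8745.

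**Figure D1:**
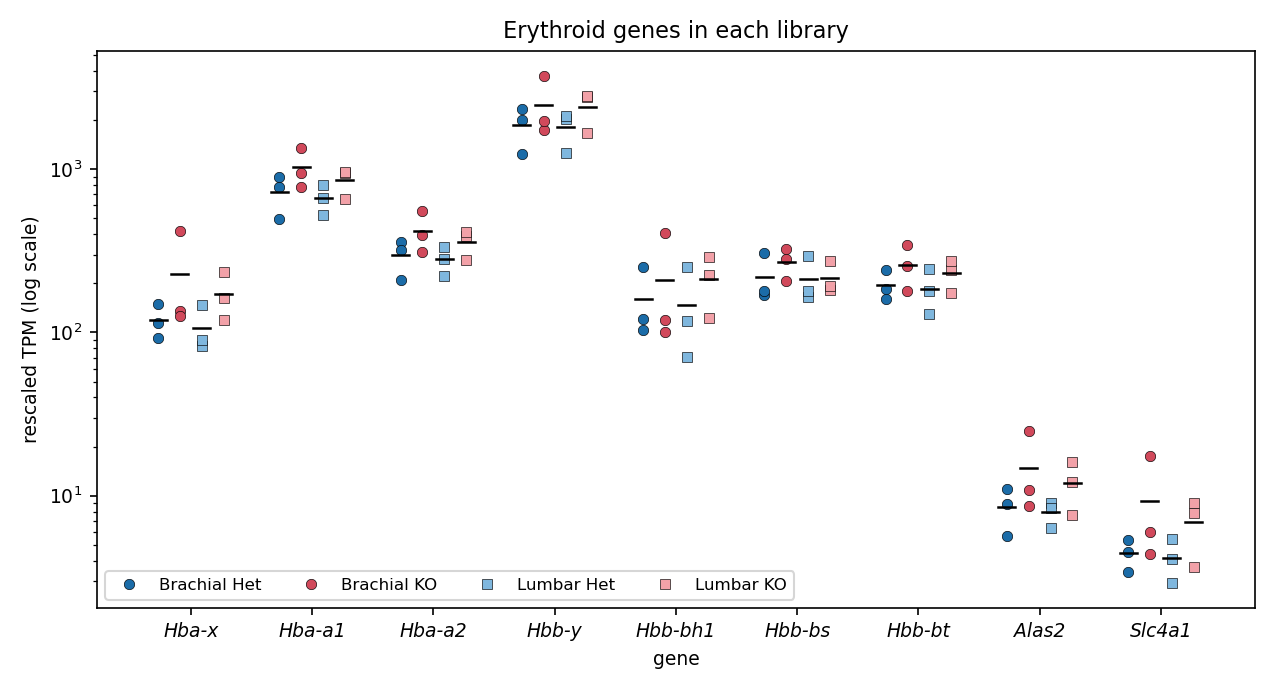
Rescaled TPM (log axis) of the 9 erythroid genes in each of the 12 libraries, with brachial libraries as circles, lumbar libraries as squares and horizontal bars for the mean of 3 libraries. Hbb-y lies highest, from 1237 to 3719, and Slc4a1 lowest, from 2.94 to 17.5, and Het and KO points overlap for every gene.

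Hbb-y made up 47.9% to 55.6% of the summed globin TPM of a library. In brachial libraries it was at 1237, 1997 and 2334 rescaled TPM in Het and 1740.0, 1985 and 3719 in KO. In lumbar libraries it was at 1258, 2043 and 2111 in Het and 1665, 2779 and 2806 in KO. The first Het library was lowest at both levels, and the genotypes overlapped at both.

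The other embryonic beta-like gene, Hbb-bh1, varied more, 5.79-fold between the lowest and the highest library against 3.01-fold for Hbb-y. It was at 121, 104 and 253 rescaled TPM in brachial Het and 119.6, 101 and 409 in brachial KO libraries. At the lumbar level it was at 70.8, 118 and 252 in Het and 123, 289.9 and 226 in KO libraries. In 3 of the 4 groups a single library was well above its 2 companions, and the genotypes overlapped. The ratio of Hbb-y to Hbb-bh1 accordingly ran from 8.39 in lumbar Het 3 to 19.7 in brachial KO 2.

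Hba-x, the embryonic alpha-like gene, was at 92.8, 114 and 149 rescaled TPM in brachial Het and 135, 125 and 419.7 in brachial KO libraries. At the lumbar level it was at 82.3, 90.3 and 147 in Het and 119.7, 236 and 162 in KO libraries. Brachial KO 3 stood apart from the other brachial libraries, and at neither level were the genotypes separate.

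The adult alpha genes varied less, 2.71-fold for Hba-a1 and 2.63-fold for Hba-a2 over the 12 libraries. Hba-a1 was at 499, 898 and 776 rescaled TPM in brachial Het and 782, 954 and 1350.0 in brachial KO libraries. It was at 525, 797 and 666 in lumbar Het and 654, 945 and 961 in lumbar KO libraries. Hba-a2 followed it closely, and the ratio of Hba-a1 to Hba-a2 stayed between 2.34 and 2.52 in all 12 libraries. This likeness and this ratio also depend on how reads common to both copies were split.

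Hbb-bs varied least of the 9 genes, 1.97-fold, and was the 1 gene that was not highest in brachial KO 3. It was at 171, 308 and 179 rescaled TPM in brachial Het and 206, 327 and 284 in brachial KO libraries. It was at 166, 296 and 178 in lumbar Het and 183, 192 and 275 in lumbar KO libraries. Hbb-bt varied 2.61-fold, and the ratio of Hbb-bs to Hbb-bt lay between 0.8 and 1.29.

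Alas2 was at 5.66, 8.94 and 10.99 rescaled TPM in brachial Het and 8.67, 10.9 and 25.0 in brachial KO libraries. It was at 6.33, 9.03 and 8.46 in lumbar Het and 7.67, 16.1 and 12.2 in lumbar KO libraries. Both genotypes overlapped at each level, and brachial KO 3 was highest. Slc4a1 was at 3.42, 5.38 and 4.50 in brachial Het and 4.38, 5.96 and 17.5 in brachial KO libraries, and at 2.94, 4.09 and 5.46 in lumbar Het and 3.65, 9.05 and 7.86 in lumbar KO libraries. It varied most of the 9 genes, 5.95-fold, and it too was highest in brachial KO 3.

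Embryonic transcripts outnumbered adult ones in the beta cluster and adult ones outnumbered embryonic ones in the alpha cluster, in 12 of 12 libraries each. The beta-like ratio, Hbb-y plus Hbb-bh1 over Hbb-bs plus Hbb-bt, was 5.23 ± 1.32 (SD, n = 12), and the alpha-like ratio, Hba-x over Hba-a1 plus Hba-a2, was 0.13 ± 0.0394. The beta-like ratio was 4.11, 3.84 and 7.12 in brachial Het, 4.82, 3.58 and 6.61 in brachial KO, 4.48, 3.996 and 6.59 in lumbar Het and 5, 7.10 and 5.52 in lumbar KO libraries. Group means were 5.02 ± 1.82, 5.002 ± 1.52, 5.02 ± 1.38 and 5.87 ± 1.10 (SD, n = 3 each), so the means differed by less than the SD within any group.

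The alpha-like ratio was 0.131, 0.0908 and 0.135 in brachial Het, 0.124, 0.0929 and 0.220 in brachial KO, 0.110, 0.0797 and 0.156 in lumbar Het and 0.128, 0.176 and 0.118 in lumbar KO libraries. The groups overlapped, with means of 0.119 ± 0.0246, 0.146 ± 0.0666, 0.115 ± 0.0382 and 0.141 ± 0.0312 (SD, n = 3 each). The embryonic genes made up 53.4% to 65.8% of globin TPM. All alpha-like over all beta-like globin TPM was 0.478 ± 0.0486 (SD, n = 12), with a range of 0.402 to 0.552. The ratios are a description of the libraries, and no test was made on them.

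**Figure D2:**
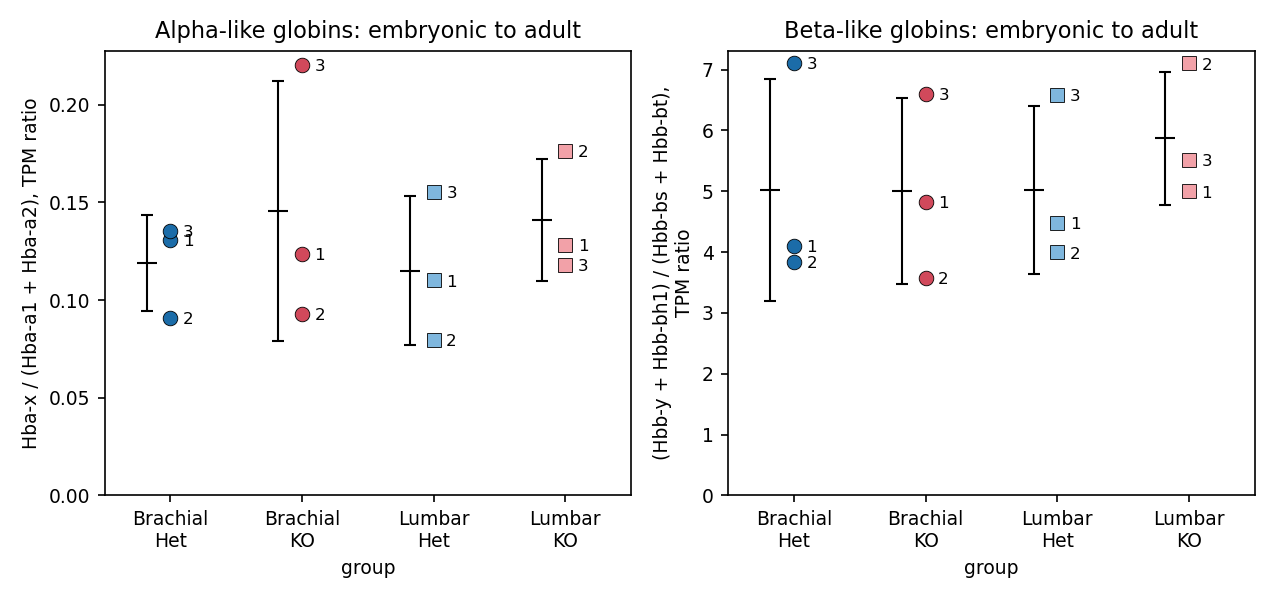
Embryonic to adult TPM ratio of the alpha-like globins (left) and of the beta-like globins (right) in each library, by group, with the replicate number beside each point and bars for the mean ± SD of 3 libraries. Alpha-like ratios lie between 0.0797 and 0.220, beta-like ratios between 3.58 and 7.12, and all groups overlap.

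**Figure D3:**
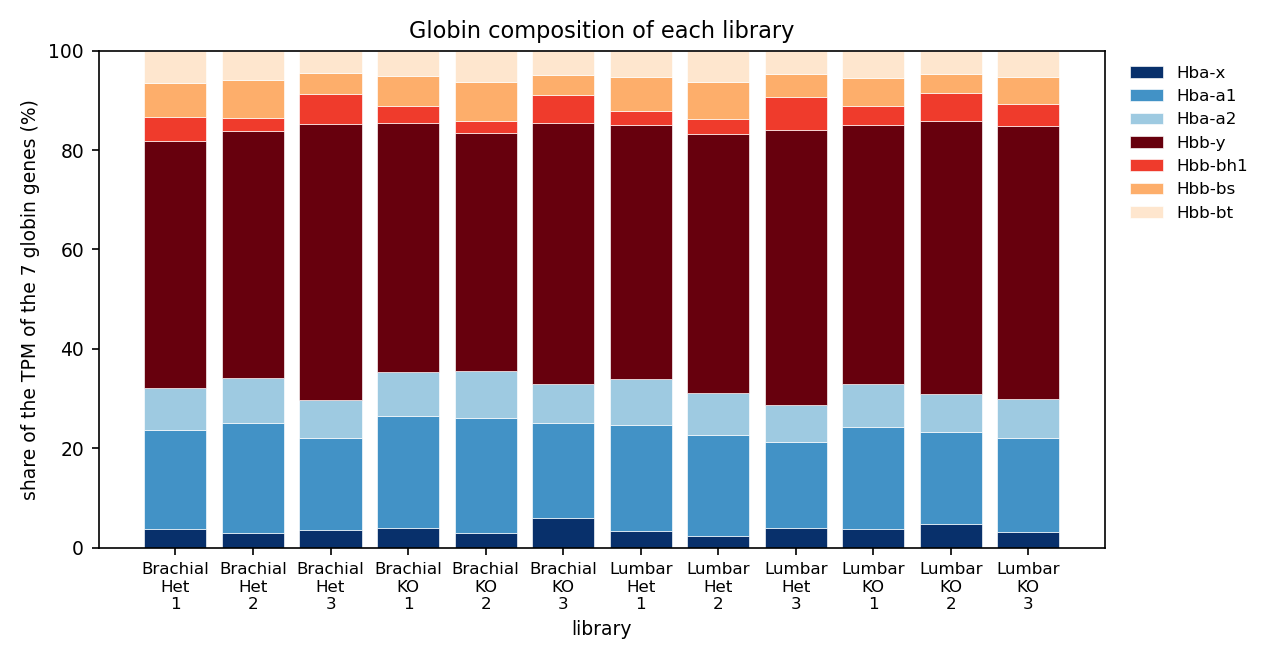
Share of the summed TPM of the 7 globin genes (%) held by each gene, with 1 stacked bar for each of the 12 libraries. Hbb-y is the largest part in every bar, 47.9% to 55.6%, and Hbb-bs and Hbb-bt together make up 8.52% to 14.1%.

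Brachial and lumbar libraries that carry the same number had similar summed globin levels in several cases. For Het 1 they were 2491 and 2455 rescaled TPM, for Het 2 4019 and 3925, and for Het 3 4197 and 3817. For KO 1 they were 3472 and 3198, for KO 2 4143 and 5073, and for KO 3 7077 and 5114. The ratio of brachial to lumbar ran from 0.817 for KO 2 to 1.38 for KO 3, and was at most 1.10 for the others. Such likeness was not always particular to the number. Brachial Het 3, at 4197, lay nearer to lumbar Het 2, at 3925, than to lumbar Het 3, at 3817.

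At the brachial level all 9 genes had a higher mean log2 level in KO than in Het libraries, and none passed the threshold, a log2 fold change beyond 0.5 with an unadjusted p under 0.05. The study set this limit for lower genes, and it was applied here in both directions. Of all 16935 genes tested, 2.23% passed it as higher and 48.2% had a log2 fold change over 0. Log2 fold changes ran from 0.21 (SE 0.55) for Hbb-bh1 to 0.81 (SE 0.47) for Slc4a1, with a median of 0.49 over the 9 genes and −0.0114 over all genes. Adjusted p-values by limma with the Benjamini-Hochberg method ran from 0.383 to 0.863, and 0 of the 9 genes had an unadjusted p under 0.05, against 13.8% of all genes. For 0 of the 9 genes were the genotypes without overlap, against 20% of all genes. Since the 9 genes move together from library to library, their common sign is not 9 separate observations. In bulk tissue, a difference in the number of red cells and one in RNA per red cell cannot be told apart.

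The size of the brachial difference depended on single libraries, KO 3 and Het 1 among them. Without brachial KO 3, which was also the library of least depth, the log2 fold change went from 0.72 to 0.16 (SE 0.18) for Hba-x, from 0.69 to 0.24 (SE 0.27) for Alas2, from 0.81 to 0.22 (SE 0.23) for Slc4a1 and from 0.39 to 0.052 (SE 0.27) for Hbb-y. That of Hbb-bh1 turned from 0.21 to −0.42 (SE 0.35). Those of Hba-a1 and Hbb-bs moved less, from 0.51 to 0.30 and from 0.34 to 0.30. Without brachial Het 1 the values were 0.26 for Hba-a1, 0.26 for Hba-a2, 0.19 for Hbb-bs, 0.12 for Hbb-y and 0.42 for Alas2, and those of Hba-a1 and Hbb-bs were lower than without KO 3. Without brachial Het 2, Hbb-bh1 was at −0.0411 and Hbb-bs at 0.61. Other values rose too. Hba-x was at 1.03 without KO 2. Slc4a1 was at 1.21, Alas2 at 0.99 and Hbb-y at 0.60 without KO 1. The count past the threshold was 3 with values as deposited (against 7.43% of all genes in either direction), 3 without Het 2 (Hba-a1, Hba-a2 and Hbb-bs, against 4.22%), and 5 without KO 1 (Hba-a1, Hba-a2, Hbb-bt, Alas2 and Slc4a1, against 8.23%). With all 6 libraries and rescaled values that share was 3.1%.

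At the lumbar level the 9 genes again had higher mean log2 levels in KO libraries, and 1 of them, Hba-x, passed the threshold, against 0.975% of the 16511 genes tested that passed it as higher and 47.4% with a log2 fold change over 0. Its log2 fold change was 0.69 (SE 0.28, unadjusted p 0.0393, adjusted p 0.999 by limma), its genotypes overlapped, and the two-sided exact permutation test gave p = 0.2, where 0.1 is the smallest that 3 against 3 libraries allow. The other 8 ran from 0.047 (SE 0.24) for Hbb-bs to 0.65 (SE 0.35) for Slc4a1, and the median of the 9 was 0.42, against −0.00875 over all genes. Adjusted p was 0.999 for all 9, and 0 of 16511 genes had an adjusted p under 0.05, while 805 (4.88%) had an unadjusted p under 0.05 by limma. Without lumbar KO 2, Hba-x was at 0.43 (SE 0.25) and did not pass the threshold. It did not pass without lumbar Het 1, Het 2 or KO 3 either. Over the fits with 1 library left out, the Hba-x log2 fold change ran from 0.43 to 0.94. With no library left out and the log2 fold change still at 0.69, it did not pass without a filter on low values (unadjusted p 0.0668 by limma), without the trend (0.0784) or with all 12 libraries in one fit (0.128). The other values moved as well. Hba-a1 was at 0.21 without Het 1 and 0.54 without KO 1, and Hbb-y at 0.18 and 0.67 without the same libraries. Hbb-bh1 was at 0.22 without Het 1 and 1.13 without Het 3. Alas2 was at 0.30 without KO 2 and 0.83 without KO 1, and Slc4a1 at 0.40 and 1.04 without the same libraries. Hbb-bs was below 0 without Het 1, Het 3 or KO 3. The count of the 9 genes past the threshold was 6 without KO 1 (against 2.6% of all genes in either direction), 3 without Het 2 (2.02%), 2 without Het 3 (2.28%), and 0 without Het 1 (1.8%), KO 2 (2.68%) or KO 3 (1.77%). With all 6 libraries that share was 1.77%. For 0 of the 9 genes were the genotypes without overlap, against 9.93% of all genes.

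**Figure D4:**
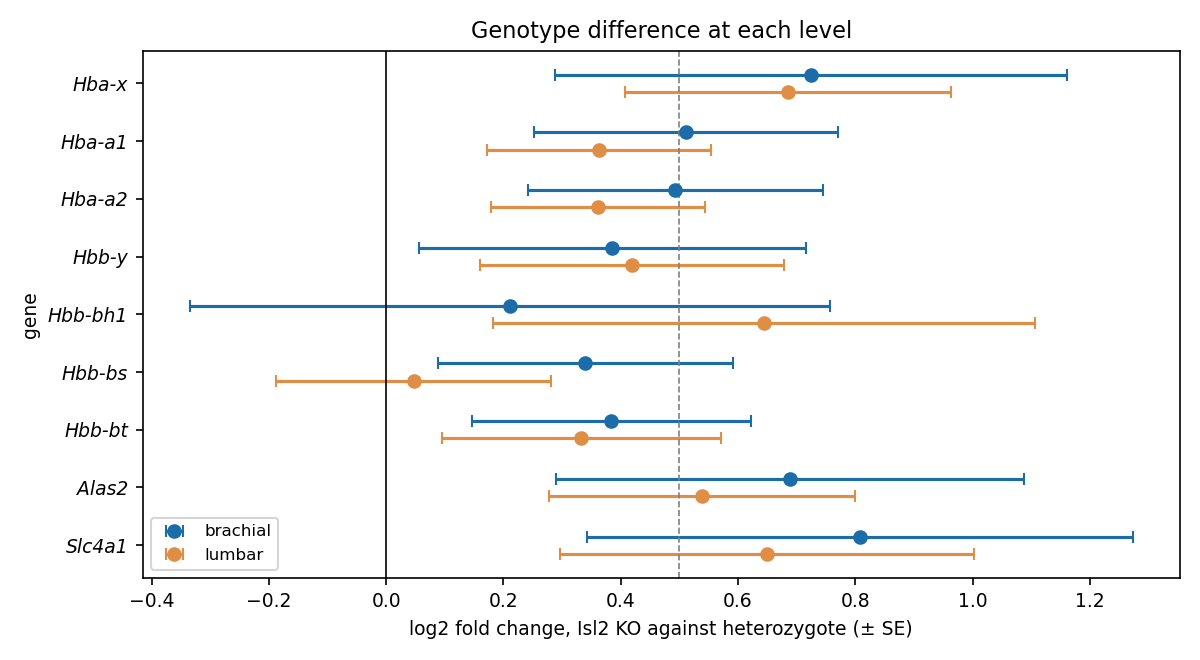
Log2 fold change of Isl2 KO against Het libraries for the 9 genes at the brachial (blue) and lumbar (orange) level, with bars for ± 1 SE and a dashed line at the threshold of 0.5. All 18 points lie above 0, from 0.047 for lumbar Hbb-bs to 0.81 for brachial Slc4a1.

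The genotype differences at the 2 levels were compared directly in all 12 libraries. The interaction ran from −0.29 (SE 0.39) for Hbb-bs to 0.43 (SE 0.82) for Hbb-bh1, and 0 of the 9 genes passed the threshold, against 0.998% of 16736 genes as higher and 1.05% as lower. Adjusted p by limma ran from 0.864 to 0.991 and no unadjusted p was under 0.05. With 1 library left out, the interaction ran from −0.57 to −0.032 for Hbb-bs and from 0.005 to 1.07 for Hbb-bh1. The intervals are wide, so a difference between levels of the size of the genotype differences themselves was not detectable with these libraries.

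Between levels, with genotype as a term, 8 of the 9 genes had a lower and 1 a higher mean log2 level in lumbar libraries, and 0 passed the threshold. Of the 16736 genes tested 4.4% passed it as higher and 5.97% as lower, and 52.1% had a log2 fold change over 0. The lumbar minus brachial log2 differences were small, from −0.19 (SE 0.28) for Hba-x to 0.018 (SE 0.40) for Hbb-bh1, with a median of −0.14. Adjusted p by limma ran from 0.522 to 0.984, and 0 of the 9 had an unadjusted p under 0.05, against 32.2% of all genes. An adjusted p under 0.05 was reached by 0 of the 9 and by 18.5% of all genes.

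Other genes of the red cell were read from lists chosen by function. Beside their counts stand the shares of all genes given above, 2.23% past the threshold as higher and 48.2% over 0 in brachial KO libraries, and 0.975% and 47.4% in lumbar KO libraries. Of 16 red cell membrane and skeleton genes, which include the blood group genes Kel, Rhd and Ermap and the spectrin gene Sptb, 13 were tested at the brachial level. All 13 had higher mean log2 levels in brachial KO libraries and 0 passed the threshold, with a median of 0.44. At the lumbar level 9 of 12 were higher, and Kel, at 1.06 (SE 0.40), and Ermap, at 0.79 (SE 0.34), passed it as higher (adjusted p 0.999 each by limma), 2 of 12 against 0.975% of all genes. The genes of this list with the highest levels were Add2, at 89.4 rescaled TPM, Epb41, at 63.2, and Dmtn, at 19.6, which neurons also express. Their lumbar log2 fold changes were −0.027, 0.12 and −0.13, and their brachial ones 0.094, 0.40 (SE 0.13) and 0.0077. Between levels, Ank1, which encodes an ankyrin, fell by 0.83 (SE 0.20, adjusted p 0.0126 by limma) and the spectrin gene Sptb fell by 0.89 (SE 0.15, adjusted p 0.0024 by limma) at the lumbar level, 2 of 13 against 5.97% of all genes.

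Genes of heme synthesis other than Alas2 showed no common direction between genotypes. Of 8 such genes, 2 were higher and 6 lower in brachial KO libraries, 4 were higher and 4 lower in lumbar KO libraries, and 0 passed the threshold. Alas1, the enzyme that most tissues use for the step that Alas2 carries out in red cells, was at 27.2 rescaled TPM, above Alas2. In the list of iron and heme transport, 3 of 9 genes were higher in brachial and 5 of 8 in lumbar KO libraries. Slc25a37, the mitochondrial iron importer of red cell precursors, rose by 0.59 (SE 0.19, adjusted p 0.999 by limma) at the lumbar level and was the 1 gene of this list to pass.

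Of the red cell maturation genes 5 of 6 were higher in brachial and 3 of 5 in lumbar KO libraries, and 0 passed. Car1 was listed at 0 in all 12 libraries, and Car2, a carbonic anhydrase, was at 13.5 rescaled TPM. Of the erythroid transcription factors 6 of 8 were higher in brachial and 3 of 7 in lumbar KO libraries, with 0 past the threshold. Between levels Runx1, a factor of blood stem cell formation that neurons and microglia also use, fell by 2.58 (SE 0.28, adjusted p 0.00013 by limma) at the lumbar level. It was 1 of 8 to pass as lower, against 5.97% of all genes. Its mean was 0.742 rescaled TPM in brachial Het, 1.05 in brachial KO, 0.0899 in lumbar Het and 0.0416 in lumbar KO libraries. The lumbar means lay below the 0.1 added before the log. The most abundant erythroid transcription factors, Ldb1, Lmo2 and Tal1, are also used by neural cells. Of 8 regulators of globin switching, Sox6, a repressor of embryonic beta-like globin, rose by 0.54 (SE 0.18, adjusted p 0.359 by limma) in brachial KO libraries. Sox6 was at 12.8 rescaled TPM over the 12 libraries. Which cells of the unsorted tissue gave the signal of these 8 genes was not tested. None of the 8 passed at the lumbar level, where all 8 were higher in KO libraries, against 47.4% of all genes. Bcl11a, another regulator of globin switching that neurons express too, was at 16.6 rescaled TPM and did not pass at either level. Between levels Igf2bp1, at 0.84 (SE 0.15), and Myb, at 0.74 (SE 0.18), passed as higher at the lumbar level, 2 of 8 against 4.4% of all genes.

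Of the other loci of the globin clusters, 3 were in the tables and were near the lower limit. Hbq1a was at 0.608 and Hbq1b at 0.827 rescaled TPM, and Hbb-bh2 at 0.0182. Hbq1a rose by 1.09 (SE 0.37, adjusted p 0.359 by limma) in brachial KO libraries. At the lumbar level, where it was below the filter and not tested, its mean was 0.651 in Het and 0.34 in KO libraries. The Hbq1a interaction was −2.2 (SE 0.90, unadjusted p 0.0312, adjusted p 0.812 by limma) and passed the threshold, in the opposite direction. Of all genes 1.05% passed it as lower for the interaction. Hbq1b had log2 fold changes of 1.03 (SE 0.54) in brachial and 0.66 (SE 0.49) in lumbar KO libraries. Its interaction was −0.37 (SE 0.78), and it did not pass in any of these comparisons. Among globins of other tissues, Cygb (cytoglobin) was at 6.41 rescaled TPM, and it fell by 0.79 (SE 0.09, adjusted p 0.000186 by limma) at the lumbar against the brachial level.

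Markers of other cell types were read beside these results. For the 10 endothelial genes 0 passed the threshold between genotypes at either level. Their summed level was 127 to 133 rescaled TPM in brachial Het, 97.8 to 128 in brachial KO, 88.9 to 96.1 in lumbar Het and 87.2 to 102 in lumbar KO libraries. All 10 had lower mean log2 levels in lumbar libraries, and 2 of the 10, Cldn5 and Flt1, passed the threshold as lower, against 5.97% of all genes. Of all genes 52.1% had a log2 fold change over 0 between levels. The 10 genes of microglia and macrophages summed to 35.8 to 42.1 in brachial Het, 30.7 to 51.9 in brachial KO, 23.9 to 29.2 in lumbar Het and 15.7 to 30.3 in lumbar KO libraries. None of these 10 passed between genotypes. All 10 had lower mean log2 levels in lumbar libraries, and 7 of the 10 passed the threshold as lower, against the same 5.97%. The part of these cells in the results was not tested.

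Genes of liver, where definitive red cells are made at this stage, summed to 1.15 to 4.44 rescaled TPM over the 12 libraries. The most abundant of the 6 were the apolipoprotein genes Apoa2, at 0.543 to 1.68, and Apoa1, at 0.298 to 1.13, which were above 0 in all 12 libraries. Albumin (Alb) was at most at 1.2, Afp at most at 1.81, Ahsg at most at 0.203 and Serpina1a at most at 0.0379, each with libraries at 0. Of 8 megakaryocyte and platelet genes 4 were tested and 0 passed between genotypes. At each level 3 of the 4 were higher in KO libraries, with medians of 0.24 in brachial and 0.63 in lumbar libraries. Of all genes 48.2% and 47.4% had a log2 fold change over 0. The sum of the 8 genes was 12.48 to 25.7, with means of 13.4 ± 0.83 in lumbar Het and 17.9 ± 6.84 in lumbar KO libraries (SD, n = 3 each). Of the 7 MN genes 5 were higher in brachial and 0 in lumbar KO libraries, with 0 past the threshold, and their sum was 162 to 258. Of the 7 genes of neurons and progenitors of the cord Nkx6-1 alone passed between genotypes, higher in brachial KO libraries, at 0.64 (SE 0.22, adjusted p 0.359 by limma). The study uses the Nkx6-1 protein as a marker of some MN groups, so this list is not apart from MNs.

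The genes whose levels followed the 9 erythroid genes most closely were named by Pearson correlation with their mean standardized log2 profile over the 12 libraries, among 16736 genes. Among the closest 10 were Kel (r = 0.957), Epb42 (0.953), Car2 (0.913), Klf1 (0.904), Slc25a37 (0.9), Nsun3 (0.885), Pkhd1l1 (0.873), Acp5 (0.873) and Gm3173 (0.869). The points share libraries and depth, and the values are a description. Of the 9 genes themselves, Hba-a2 (0.976), Hba-a1 (0.968), Alas2 (0.967), Hbb-y (0.966) and Slc4a1 (0.962) lay closest to the shared profile. Hbb-bh1 (0.75) and Hbb-bs (0.608) lay farthest from it. Each of the 9 genes is part of the profile it was compared with, so these values are partly built in. Near-identical copies such as Hba-a1 and Hba-a2 also weigh on the profile together. Hbb-bh1 was most like Rhd (0.948), a gene of the red cell membrane, and Hbb-bs was most like Zmat1 (0.877) and Tent5c (0.877).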

How the data were processed

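RNA was measured in 12 libraries made with a stranded total RNA kit after ribosomal RNA depletion. Per the labels, the authors used FastQC 0.11.7, Trimmomatic 0.38, HISAT2 2.1.0, Bowtie2 2.3.4.1 and StringTie 2.1.3b with mm10, without further settings in the sources used here. The deposited TPM, FPKM and per-base coverage values are the authors' StringTie estimates per gene for each library. The tables hold no counts, so no count model was used and counting error per gene is unknown.

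Symbols were taken from RefSeq GRCm38.p6 for 45679 of 45777 identifiers, of which 96.2% had the same coordinates there. For 5 identifiers that occur on several lines the values were added up. Aligned bases came from the ratio of coverage to FPKM. TPM was divided by median-of-ratios size factors (0.893 to 1.25 over the 12 libraries) and log2(value + 0.1) was fitted with limma 3.58.1 in R 4.3.3 (eBayes with trend) over genes with a mean deposited TPM of at least 0.5. A fold change on this scale understates changes of low genes. A filter on rescaled TPM was run first and is kept as an added alternative.

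A gene was called where its log2 fold change lay beyond 0.5 with an unadjusted p below 0.05, the limit that the study set for lower genes, applied here in both directions with limma, and adjusted p-values use Benjamini-Hochberg over all genes tested. KO was compared with Het separately at each level, in 6 libraries, and levels and the interaction in 12. The smallest exact permutation p is 0.1 for 3 against 3 libraries. Ratios and sums were not tested. Named genes are the 9 erythroid genes, Isl2, the 3 most abundant genes of each list, genes of a list past the threshold, and the 10 genes most like the shared profile. Some of these genes are not reported here. The other genes given with values were named after their values were seen. The 9 genes and all lists were chosen with earlier results of these data known. Alternatives were pseudocounts of 0.001 and 1, other filters, FPKM, values as deposited, quantile normalization, no trend, a block for the replicate number, one fit of all 12 libraries, leaving out each library and, added after the data were seen, protein-coding genes only and the filter on rescaled TPM. Python 3.11.15, pandas 2.3.3, scipy 1.17.1 and matplotlib 3.10.9 were used.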

Additional observations from a re-analysis of the deposited data

Results flagged for a closer look

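Brachial KO 3 lay far above the other 5 brachial libraries in 4 of the 12 brachial sets of 6 libraries that were checked, and chance marks about 1 in 20 groups. The gap to the next library, as a share of the whole range, was 0.829 for Hba-x (419.7 against 149 rescaled TPM), 0.724 for Alas2 (25.0 against 10.99), 0.82 for Slc4a1 (17.5 against 5.96) and 0.656 for the alpha-like embryonic to adult ratio (0.220 against 0.135), each above Dixon's 95% critical value for 6 samples. The 4 values come from 1 library and from genes that move together, so they are not separate observations. The same library had the fewest aligned bases, 4.485 Gb, and the part of depth was not tested. None of the 12 lumbar sets was marked. The beta-like ratio and the globin share of TPM were not marked at either level.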

How the results depend on the processing

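The number of the 9 erythroid genes past the threshold depended on the processing. In brachial KO against Het it was 0, 3 with values as deposited (7.43% of all genes passed), and 0 to 5 with 1 library left out. In lumbar KO against Het it was 1, 0 without a filter (2.18%), 2 with values as deposited (1.64%), 2 with quantile normalization (1.81%), 0 with eBayes without trend (2.12%), 0 with all 12 libraries in one fit (1.59%), and 0 to 6 with 1 library left out. Between levels and for the interaction it was 0 under all alternatives that were run. With 1 library left out, group means ran from 3.97 to 6.31 for the beta-like and from 0.0948 to 0.172 for the alpha-like ratio. The causes were not tested.

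Some small differences changed sign. Lumbar minus brachial, Hbb-bh1 was at −0.12 with values as deposited and −0.0639 with quantile normalization, and Hbb-y at 0.0591 with the latter. The Hbb-y interaction was −0.13 with values as deposited. With 1 library left out, brachial Hbb-bh1 ran from −0.42 to 0.60 and lumbar Hbb-bs from −0.14 to 0.31. Between levels, Hba-x ran from −0.33 to 0.0589, Hbb-y from −0.13 to 0.13, Hbb-bh1 from −0.17 to 0.28, Alas2 from −0.27 to 0.0684 and Slc4a1 from −0.36 to 0.0795. The interaction ran from −0.35 to 0.52 for Hba-x, −0.33 to 0.099 for Hba-a1, −0.33 to 0.098 for Hba-a2, −0.21 to 0.37 for Hbb-y, −0.29 to 0.17 for Hbb-bt, −0.46 to 0.30 for Alas2 and −0.56 to 0.43 for Slc4a1.

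Same-numbered Het and KO libraries deviated from their group means with correlations of 0.0807, 0.23 and 0.0119 for brachial and 0.144, −0.209 and −0.0877 for lumbar libraries, and they were therefore not treated as pairs. For brachial with lumbar libraries of one number they were −0.0238, 0.2 and 0.34 in Het and 0.029, −0.216 and 0.0689 in KO libraries. With replicate number as a block, 3 of the 9 genes passed at each level (against 3.15% of all genes in brachial and 1.85% in lumbar libraries), Hba-x, Hba-a1 and Alas2 in brachial and Hba-x, Alas2 and Slc4a1 in lumbar libraries, and 0 passed between levels or for the interaction. The block leaves all differences at the same size.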
